A study of Mus musculus with 143 samples.

Results

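The cytosolic ribosomal protein genes were described in adipose stem cells (ASC) sorted from the fat of adult male and female mice. Members were the coding genes whose symbols follow the Rpl and Rps naming of the large and small ribosomal subunit, together with Rpsa, Rplp0, Rplp1 and Rplp2, while pseudogenes and the Rps6k kinases were left out. This gave 83 of the 53468 genes in the count table, 51 of the large and 32 of the small subunit, on 19 chromosomes with 4 on the X chromosome. Of these, 80 passed the filter on low counts in each comparison and 3 did not (Rpl3l, Rpl10l and Rpl39l). Bulk RNA sequencing by the Smart-seq2 protocol had been done on CD45-/CD31-/CD34+ cells of C57BL6/J mice, split by the surface enzyme DPP4 into DPP4- cells, called ASC1 here, and DPP4+ cells, called ASC2. The 8 male and 8 female mice each gave cells from perigonadal white fat (pgWAT), inguinal white fat (iWAT) or both. The labels name no treatment of the mice and no altered allele, and the description of every library holds the word control. The paper states that mice used for bulk sequencing of sorted ASC had been fasted for 4 h when they were killed. Summing the libraries that share mouse, depot and gate gave 57 samples in 8 groups: 8 mice for male iWAT ASC1 and 7 for each other combination of sex, depot and gate. Each sample was a sort of 5000 cells, and RNA of about 300 cells went into each cDNA synthesis.

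Ribosomal proteins, with the rRNAs, build the ribosome, and each is present once in it, apart from Rplp1 and Rplp2 of the large subunit, which are present more often. Their mRNAs are short, abundant and begin with a C followed by a run of pyrimidines, the terminal oligopyrimidine (TOP) tract, through which mTORC1 and the RNA-binding protein LARP1 set how much of the mRNA is translated. The level of these mRNAs and their translation can therefore differ. In stem cells of fat, as in other tissues, ribosome content is known to change with growth and differentiation. RefSeq promoter sequences of GRCm38.p6 were found for 63 of the 83 members, and 5 windows of 30 bases are printed because they belong to genes that changed much (Rps25, Rpl34 and Rpl35a) or less (Rpl7a and Rpl4) in the comparisons. Each window is centred on the longest run made only of C or T that lies within 25 bases of the annotated start, and capitals mark this run. The window need not hold the start itself, which may also differ from the start used in these cells.
Rps25 (chr9:44407684-44407713, + strand): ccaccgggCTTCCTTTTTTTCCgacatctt
Rpl34 (chr3:130730330-130730359, - strand): acccgCCCCTTCCTTTTCCTCTTCCgggga
Rpl35a (chr16:33056468-33056497, + strand): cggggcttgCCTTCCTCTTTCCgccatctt
Rpl7a (chr2:26910788-26910817, + strand): cacaaTTCCCTCTTCTTTCTTTCTCCagca
Rpl4 (chr9:64173361-64173390, + strand): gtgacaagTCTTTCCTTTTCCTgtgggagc
The runs were 14 bases long in Rps25, 20 in Rpl34, 13 in Rpl35a, 21 in Rpl7a and 14 in Rpl4.

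Gene counts per sample ranged from 545885 to 4029915, and those of the 143 libraries from 100026 to 2330623. An rRNA-like pair of genes, CT010467.1 and AY036118, held 36.6% of all counts. All 8 markers of ASC (Pdgfra, Dcn, Lum, Cd34, Col1a1, Col1a2, Col3a1 and Ly6a) were detected in all 57 samples, with summed levels of 7483 to 63485.5 CPM, the count scaled to a common library total. The lowest of these was female iWAT ASC1 mouse 22, where 11 markers of mammary luminal epithelium summed to 21466 CPM, against a median of 2091 CPM in its group. The labels give each library a replicate letter, a, b or c. Single libraries of one sample differed in their ribosomal protein share by an SD of 0.399 percentage points. The SD between mice of one group was 0.266, but it is taken on libraries already summed, so the 2 are unlike measures. In female pgWAT ASC1 they were 0.201 and 0.262, and in the other groups the first was the larger. Some groups differed by letter, so results are also given for each letter.

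Ribosomal protein transcripts took a smaller share of the counts in male ASC1 than in male ASC2, in both depots and within every mouse that had both gates, whereas in females ASC1 was the higher gate in some mice and ASC2 in others. In male pgWAT ASC1 the share of all gene counts lay between 0.949% and 1.19% (median 1.02%), the lowest of the 8 groups. In male pgWAT ASC2 it lay between 1.28% and 1.64% (median 1.47%). In male iWAT ASC1 it lay between 1.03% and 1.42% (median 1.23%). Neither male ASC1 group overlapped with the female ASC1 group of its depot, and male pgWAT ASC1 did not overlap with male pgWAT ASC2. In male iWAT ASC2 the share ran from 1.36% to 3.02% (median 2.54%), which was the highest median and also the widest range of all groups. The 4 female groups held 1.32% to 2.01% (pgWAT ASC1, median 1.56%), 1.5% to 1.92% (pgWAT ASC2, median 1.66%), 1.59% to 1.97% (iWAT ASC1, median 1.73%) and 1.22% to 1.90% (iWAT ASC2, median 1.59%). They all overlapped with each other.

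**Figure D1:**
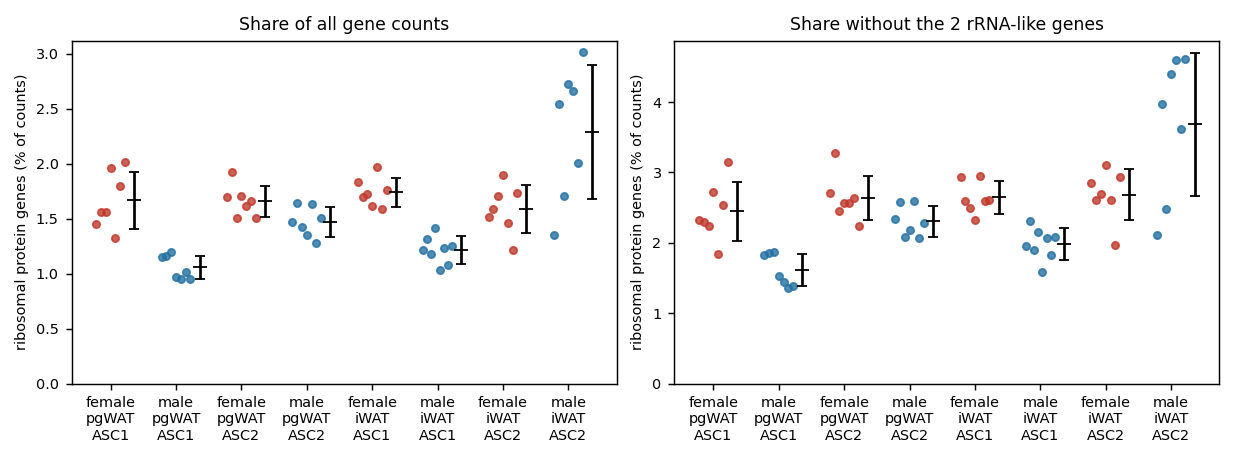
Share of gene counts that fell on the 83 ribosomal protein genes, in percent, for each sample (points, female in red and male in blue) with the group mean and SD (bars). The left panel uses all gene counts, where male pgWAT ASC1 samples sit at 0.949% to 1.19%, and the right panel leaves out the 2 rRNA-like genes, where they sit at 1.36% to 1.87%.

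Without the rRNA-like genes the group means were 1.61% ± 0.230 (SD, n = 7) in male pgWAT ASC1, 2.31% ± 0.218 (SD, n = 7) in male pgWAT ASC2, 1.98% ± 0.224 (SD, n = 8) in male iWAT ASC1 and 3.69% ± 1.02 (SD, n = 7) in male iWAT ASC2, while the female means lay between 2.45% and 2.68%. On that scale the ranges of male and female pgWAT ASC1 overlapped, at 1.36% to 1.87% and 1.84% to 3.15%. The 2 subunits moved together: the ratio of large to small subunit counts had group means of 1.34 (male iWAT ASC2) to 1.54 (female iWAT ASC1). In a bulk sample, fewer cells of a type and less RNA per cell cannot be told apart, and a share can also change because other transcripts change.

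Within a mouse, the share in ASC2 divided by that in ASC1 was above 1 in 6 of 6 males in pgWAT (1.27 to 1.60, median 1.40) and in 7 of 7 males in iWAT (1.11 to 2.41, median 1.92). In females it was above 1 in 3 of 7 mice in pgWAT (0.750 to 1.23, median 0.965) and in 2 of 6 in iWAT (0.769 to 1.10, median 0.947). Between libraries of the same mouse and letter, the male ratio was above 1 in 12 of 12 pairs in pgWAT and 16 of 16 in iWAT, and the female ratio in 6 of 13 and 5 of 15. The direction in males was thus the same for each letter, in each mouse.

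Gene by gene, edgeR's quasi-likelihood test with Benjamini-Hochberg adjustment over all genes, fitted to the 8 groups, called 35 of 80 members higher in ASC2 than in ASC1 in male pgWAT and none lower, where 4.03% of all 12270 genes were called higher. In male iWAT 67 were called higher and none lower, where 7.9% of all genes were. The median log2 fold change of the members was 0.54 in male pgWAT and 0.82 in male iWAT, against 0.03 and -0.01 over all genes. In females no member was called in pgWAT, where 5.17% of all genes were called in either direction, with 1 member at an unadjusted p under 0.05 (median 0.11), and 1 was called in iWAT, Rpsa, where 7.48% of all genes were called higher (median 0.11). The difference between the sexes in this gate effect was itself tested: it was called for 35 members in iWAT, all larger in males, where 3.34% of all genes were (median 0.76), and for none in pgWAT, where 23 members had an unadjusted p under 0.05 and 0.432% of all genes were called in either direction (median 0.43). The comparison of these differences between the depots called no member (1 at an unadjusted p under 0.05, median 0.32, and 0.432% of all genes called). With mouse as a replicate block these counts were 12 in iWAT and 3 in pgWAT. Without libraries under 250000 counts, nearly all of them from female iWAT ASC1, the count in iWAT was 8. Scaled by library totals in place of TMM, it was 74, where 11.9% of all genes were called in either direction and the median of all genes was 0.49, against 1.23 for the members. With both sexes in one fit, 31 members were higher in ASC2 in pgWAT (7.73% of all genes) and 41 in iWAT (8.29% of all genes), and the latter count was 18 with the block, 26 with library totals and 22 to 51 with any one mouse left out. By letter a, b and c these counts were 1, 11 and 4 in pgWAT (15 from b and c summed) and 62, 2 and 8 in iWAT (14 from b and c summed). The share of all genes called is not given for fits by letter, with the block, without shallow libraries or with a mouse left out. A change in those counts therefore cannot be told from a change in how many genes were called.

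**Figure D2:**
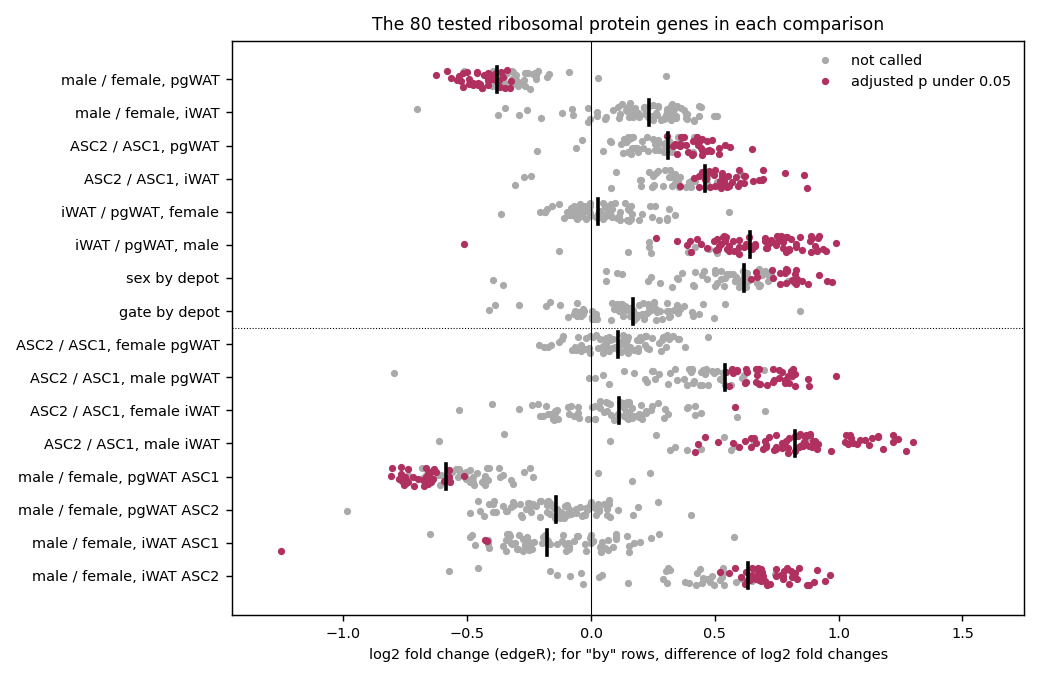
Log2 fold change of each of the 80 tested ribosomal protein genes (points) in each comparison, with the members called at an adjusted p under 0.05 in edgeR's quasi-likelihood test in dark red, the others in grey and the median as a black bar. Comparisons above the dotted line hold gate or sex as a term in the fit, and those below it come from the 8 groups, where 67 members are called for ASC2 over ASC1 in male iWAT and 1 in female iWAT.

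Among small subunit genes, Rps25, which lies at the head of the 40S subunit and is known for its part in internal initiation, measured 44.0 to 58.9 CPM (median 52.6) in male iWAT ASC1 and 72.4 to 201 CPM (median 139) in male iWAT ASC2. The groups did not overlap, and it changed by 1.27 ± 0.17 on the log2 scale (SE, adjusted p = 1.76e-08). In female iWAT its values were 74.3 to 92.5 CPM in ASC1 and 51.1 to 95.8 CPM in ASC2, which overlapped. Rps24 and Rps15, also among the 5 largest changes, had log2 fold changes of 1.22 and 1.22. In male pgWAT the leading small subunit genes were Rps29 (0.88 ± 0.18, SE, adjusted p = 0.000346) and Rps15a (0.82 ± 0.18, SE, adjusted p = 0.00116). Rps29 held 72.8 to 102 CPM (median 79.4) in male pgWAT ASC1 and 120.3 to 205 CPM (median 159) in male pgWAT ASC2. The female pgWAT samples ran from 94.5 to 204 CPM in ASC1 and from 97.1 to 176 CPM in ASC2, so that male ASC1 stood below the other 3 groups in its median.

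Among large subunit genes, Rpl21 led in male iWAT, with 34.3 to 54.5 CPM (median 46.5) in ASC1 and 58.5 to 181 CPM (median 137) in ASC2 (log2 fold change 1.24 ± 0.18, SE, adjusted p = 1.67e-07). This gene has 54 annotated copies, the most of any member, so reads may be split among them. In male pgWAT the largest change was that of Rpl31, which lies near the exit of the nascent chain tunnel: 4.29 to 33.2 CPM (median 27.6) in ASC1 and 36.2 to 60.9 CPM (median 51.8) in ASC2. The groups did not overlap (log2 fold change 0.99 ± 0.26, SE, adjusted p = 0.00856). Rpl39, a very short protein that lines the same tunnel, followed with 0.88 ± 0.22 (SE, adjusted p = 0.00484) and Rpl37a with 0.82 ± 0.18 (SE, adjusted p = 0.000982). Rpl4 and Rpl3, long proteins with abundant mRNA, moved less: the log2 fold change between gates in male iWAT was 0.43 ± 0.12 (SE, adjusted p = 0.00551) for Rpl4 and 0.26 ± 0.13 (SE, adjusted p = 0.218) for Rpl3.

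By replicate letter, the median log2 fold change of the members between the gates in male iWAT was 1.28 in library a, 0.67 in b and 0.51 in c, with 70, 47 and 17 members called. Of coding non-members under 1000 bases 12.2%, 5.66% and 3.78% were called higher there, and of longer ones 4.46%, 6.05% and 4.27%. In male pgWAT the median of the members was 0.34, 0.52 and 0.52. There 0 (17 at an unadjusted p under 0.05), 3 and 15 were called from one library each and 44 from b and c summed. Of coding non-members under 1000 bases 1.31%, 2.33% and 3.95% were called higher in male pgWAT, and of longer ones 1.40%, 1.57% and 2.02%. Leaving out any one mouse gave 62 to 71 called members in male iWAT, and 14 to 38 in male pgWAT, where the count was 22, 22, 19, 14 and 23 without male mouse 3, 4, 5, 6 or 7.

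Other measures moved with the gates in males. The share of mitochondrially encoded transcripts was 0.564% to 0.829% in male iWAT ASC1 and 0.657% to 1.31% in ASC2, and 0.575% to 0.664% and 0.723% to 0.968% in pgWAT. The 10 endothelial markers summed to 119 to 262 CPM in male iWAT ASC1 and 205 to 1774 CPM in ASC2, with 6 of the 10 called higher, and no marker of that list stood at 0 in all samples of either group. Pecam1, which encodes the CD31 that the sort had gated out, lay at 0.684 to 14.7 CPM in ASC1 and 1.08 to 307 CPM in ASC2. The highest endothelial sum in male iWAT ASC2 was that of mouse 1. This mouse also had the lowest ribosomal protein share of that group, 1.36%, and no library a in it. Of the 8 ASC markers, 5 were called lower and 1 higher in male iWAT ASC2. Of the other lists there, 1 of 8 tested mammary epithelial markers was higher, 1 of 5 mesothelial markers lower and no leukocyte marker called. In male pgWAT the 10 endothelial markers summed to 118 to 278 CPM in ASC1 and 295 to 768 CPM in ASC2, with 1 of 10 called, and the 11 mammary epithelial markers to 0.669 to 76.2 CPM and 19.9 to 412 CPM, with 4 of the 8 tested called higher. Mesothelial markers summed to 47.4 to 147 CPM in male pgWAT ASC1 and 60.3 to 294 CPM in ASC2, with 2 of 5 tested higher, 1 of 6 leukocyte markers was higher, and of the 8 ASC markers 2 were lower and 1 higher. Krt19 stands in both the mammary and the mesothelial list. The mammary list also holds Epcam and Krt18, by which the paper named an epithelial cluster in pgWAT. In pgWAT these markers therefore do not tell mammary from other epithelial cells. The part of all these marker lists in the ribosomal protein difference was not tested. Coding genes other than members with transcripts under 1000 bases, a class that holds 63 of the 80 tested members, had a median log2 fold change of 0.23 between the gates in male iWAT and 0.09 in male pgWAT.

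In pgWAT, ribosomal protein mRNA was lower relative to other counts in male than in female ASC, with members called in ASC1 and none in ASC2. With both gates in the fit, edgeR's quasi-likelihood test called 41 of 80 members lower in males and none higher, where 5.42% of all genes were called lower, with a median log2 fold change of -0.38 and 78 members below 0. In ASC1 alone 36 were lower (2.84% of all genes, median -0.58). In ASC2 none was called, where 2.69% of all genes were called in either direction. There 63 members were below 0 and 11 had an unadjusted p under 0.05 (median -0.14). The gap between these 2 sex differences is the sex difference in the gate effect given above, which was not called for any member in pgWAT.

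Rps27, a zinc-finger protein of the small subunit, lay at 155 to 267 CPM (median 172) in female pgWAT ASC1 and 93.7 to 119 CPM (median 105) in male. The ranges were apart (log2 fold change -0.78 ± 0.16, SE, adjusted p = 0.0005). Rpl34, whose long pyrimidine run is printed above, had the largest change, from 109.6 to 195 CPM (median 132) in females to 61.2 to 108 CPM (median 65.1) in males (-0.81 ± 0.18, SE, adjusted p = 0.00212). Rpl21 (-0.77) and Rps19 (-0.77), the latter known from Diamond-Blackfan anaemia, were also among the 5 largest. With both gates in the fit Rpl10a (-0.58), Rps3 (-0.54) and Rps7 (-0.53) were among the 5 largest. In ASC1 the median log2 fold change was -0.50 in library a, -0.49 in b and -0.78 in c, so the direction held in each letter, although a and b alone gave 0 called members (40 and 30 at an unadjusted p under 0.05) and c gave 34. By letter a, b and c, 0.526%, 0.832% and 3.09% of short coding genes other than members were called lower, and 0.976%, 0.821% and 0.781% of longer ones. Short coding genes other than members had a median of -0.04 in this comparison over all libraries, and of 0.08 in library a, 0.03 in b and -0.32 in c. No marker of endothelium, mesothelium or mammary epithelium was called in it, 1 of 6 leukocyte markers was higher in males, and 1 of 8 ASC markers was lower. The count was 24 to 46 with one mouse left out, and with both gates it was 26 without male mouse 7 and 17 when the gates were summed per mouse and 23 with no filter on low counts. Scaled by library totals, 62 members were called lower in ASC1, with 6.19% of all genes called in either direction and medians of -0.71 for the members and -0.15 for all genes.

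**Figure D3:**
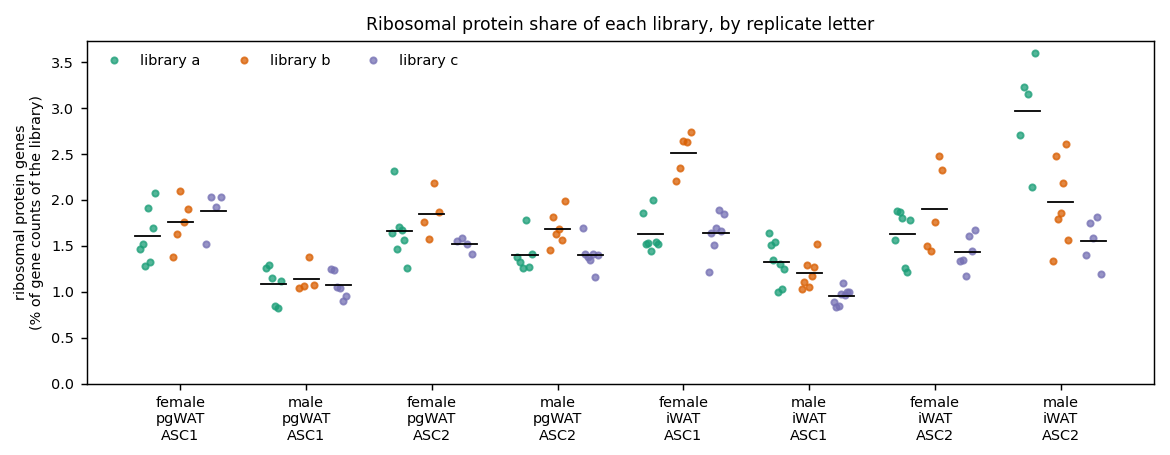
Ribosomal protein share of each library, in percent of its gene counts (points), by group and by the replicate letter in the labels (a, b or c), with black bars at the means. The libraries with letter a of male iWAT ASC2 lie between 2.14% and 3.60% and those with letter c between 1.20% and 1.81%, and in female iWAT ASC1 the libraries with letter b lie apart from a and c.

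In iWAT, the sex difference ran the other way in ASC2, but it rested on the libraries with letter a. Over all libraries 45 members were called higher in male than in female iWAT ASC2 and none lower, where 2.53% of all genes were called higher, with a median log2 fold change of 0.64. Rps23, a small subunit protein of the decoding centre, led with 0.97 ± 0.22 (SE, adjusted p = 0.00268), and its values were 38.8 to 58.6 CPM (median 44.3) in females and 40.2 to 142 CPM (median 104) in males, which overlapped. Rpl21 (0.94), Rps25 (0.91) and Rps10 (0.90) followed. The ribosomal protein share in male iWAT ASC2 was 2.14% to 3.60% (median 3.15%, 5 mice) in library a, 1.33% to 2.61% (median 1.86%, 7 mice) in b and 1.20% to 1.81% (median 1.59%, 5 mice) in c. Male mice 1 and 3, with summed shares of 1.36% and 1.71%, had no library a in this group. From library a alone 63 members were called (median 1.23), from b and from c none (1 and 0 members at an unadjusted p under 0.05, medians -0.02 and -0.04), and from b and c summed 1 (median 0.06). Short coding genes other than members had medians of 0.60 in library a, 0.08 in b and 0.07 in c, and longer ones -0.13 in library a. Of the short ones 12.5%, 0.666% and 1.03% were called higher in males by letter, and of longer ones 0.838%, 0.572% and 0.546%. Beside this difference, 2 of 10 endothelial markers were higher in males (summed 205 to 1774 CPM, against 215 to 509 CPM in females), and 2 of 8 mammary epithelial markers, 1 of 5 mesothelial markers and 2 of 8 ASC markers were lower. Their part was not tested. What sets these libraries apart was not tested either, and the labels give no date or plate for the letters. Leaving out one mouse gave 27 to 58 called members, with 27 without mouse 8 and 28 without mouse 23.

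In iWAT ASC1 males were lower for 3 members, where 6.69% of all genes were called lower (median -0.18): Rpl5 (-1.25 ± 0.42, SE, adjusted p = 0.0363), Rpl4 (-0.43 ± 0.12, SE, adjusted p = 0.00806) and Rpl3 (-0.42 ± 0.14, SE, adjusted p = 0.0295). Rpl5, which carries 5S rRNA into the large subunit, stood at only 7.35 to 23.9 CPM in female and 1.35 to 8.13 CPM in male iWAT ASC1, and its annotated copies held more counts than the gene itself. Female iWAT ASC1 is the group with mammary epithelial transcripts, and 8 of 8 tested mammary markers were lower in males, with 5 of 8 ASC markers higher. Their part here was not tested. Library b of this group had 2.21% to 2.74% at a median depth of 170909 counts, and from library b alone 40 members were called lower in males, against 2 from a and 7 from c. Scaled by library totals, 51 members were called lower in males over all libraries, with 22.9% of all genes called in either direction and medians of -0.59 for the members and -0.44 for all genes. With both gates in the fit no member was called between the sexes in iWAT, against 4.38% of all genes in either direction (22 at an unadjusted p under 0.05, 1 called by DESeq2, median 0.23), with 34 called from library a and 0 from b and c each (40 and 17 at an unadjusted p under 0.05, medians -0.44 and -0.26).

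Between depots, females gave no call: no member was called, against 6.12% of all genes in either direction (9 members at an unadjusted p under 0.05, 1 called by DESeq2, median 0.03 for iWAT over pgWAT). Nor was any called in ASC1 (1 at an unadjusted p under 0.05, 7.8% of all genes called) or in ASC2 (3 at an unadjusted p under 0.05, 3.4% of all genes called). In males 70 members were higher in iWAT and 1, Rpl7l1, was lower (-0.52 ± 0.15, SE, adjusted p = 0.0163), where 8.16% of all genes were called higher and 5.8% lower, with a median of 0.64. Short coding genes other than members had a median of 0.34. Rps3a1 (0.99), Rpl19 (0.95) and Rps3 (0.94) changed most. In ASC1, 27 members were higher in iWAT (3.54% of all genes, median 0.46), led by Rpl31 (0.83), Rpl10a (0.82), Rps3 (0.82), Rps3a1 (0.81) and Rpl29 (0.81). This depended on the letter: 15 members were called from library a, none from b (8 at an unadjusted p under 0.05) and 5 from c, and Rps3 and Rps3a1 were at -0.01 and -0.14 in c. Within a mouse and letter, the share in male ASC1 was higher in iWAT in 6 of 6 pairs of a (median ratio 1.20), 0 of 3 of b (0.978) and 3 of 6 of c (0.990). In ASC2, 57 were (4.29% of all genes, median 0.82). Scaled by library totals, 45 members were called with both gates in the fit and 9 in ASC1, with 20.3% and 12.4% of all genes called in either direction. Of the marker lists, 4 of 8 ASC markers were higher in iWAT in male ASC1, with 1 of 5 mesothelial markers higher and 1 lower. In male ASC2, 6 of 8 mammary and 4 of 5 mesothelial markers were lower in iWAT (mesothelial sums of 5.83 to 20.9 CPM, against 60.3 to 294 CPM in pgWAT), 1 of 6 leukocyte markers was lower, and of the ASC markers 3 were higher and 2 lower. Their part was not tested.

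Rps3a1, a small subunit gene, measured 270.4 to 353 CPM (median 304) in male pgWAT ASC2 and 336 to 805 CPM (median 623) in male iWAT ASC2, which overlapped in part (log2 fold change 1.09 ± 0.17, SE, adjusted p = 5.1e-06). Rpl23 (1.04) was also among the 5 largest. For the members as a group the size again depended on the letter: in ASC2 the median was 1.37 in library a, 0.37 in b and 0.25 in c, with 62, 3 and 1 called, and 9 from b and c summed. Short coding genes other than members had medians of 0.78, 0.04 and -0.02 by letter, with 17.7%, 2.16% and 0.687% called higher. Longer ones had -0.14, 0.02 and -0.03, with 2.09%, 2.29% and 1.49% called higher. Over all libraries the short ones had a median of 0.34, with 10.9% called higher, and the longer ones -0.09, with 3.01%. Within a mouse and letter, the share in male ASC2 was higher in iWAT in 4 of 4 pairs of a (median ratio 2.11), 2 of 5 of b (0.983) and 3 of 4 of c (1.08). With both gates in the fit, a gave 52 called members, b 3, c 5 and b and c summed 35, with medians of 0.81, 0.33 and 0.30 for the single letters.

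The test of the sex difference between depots called 23 members, all with a larger male over female value in iWAT, where 1.19% of all genes were called higher (median 0.62). Rpl29 (0.88) and Rps7 (0.85) were among the 5 largest. The count was 47 from library a (median 0.97) and 0 from b, from c and from both summed (0, 18 and 13 members at an unadjusted p under 0.05, medians -0.08, 0.20 and 0.22), 12 with mouse as a replicate block, 5 with library totals (1.93% of all genes called in either direction), 47 without libraries under 250000 counts, and 14 to 37 with one mouse left out (36 without mouse 1, 37 without mouse 3 and 14 without mouse 4). For the sex difference between depots, short coding genes other than members had medians of 0.25 over all libraries and 0.47, -0.17 and 0.18 by letter. Of these, 2.34% were called higher over all libraries, and 5.62%, 0% and 0.191% by letter. Longer ones had medians of -0.02 over all libraries and -0.04, 0.11 and -0.004 by letter. The gate difference between depots was called for no member, against 2.0% of all genes in either direction (6 members at an unadjusted p under 0.05, none called by DESeq2, median 0.17).

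**Figure D4:**
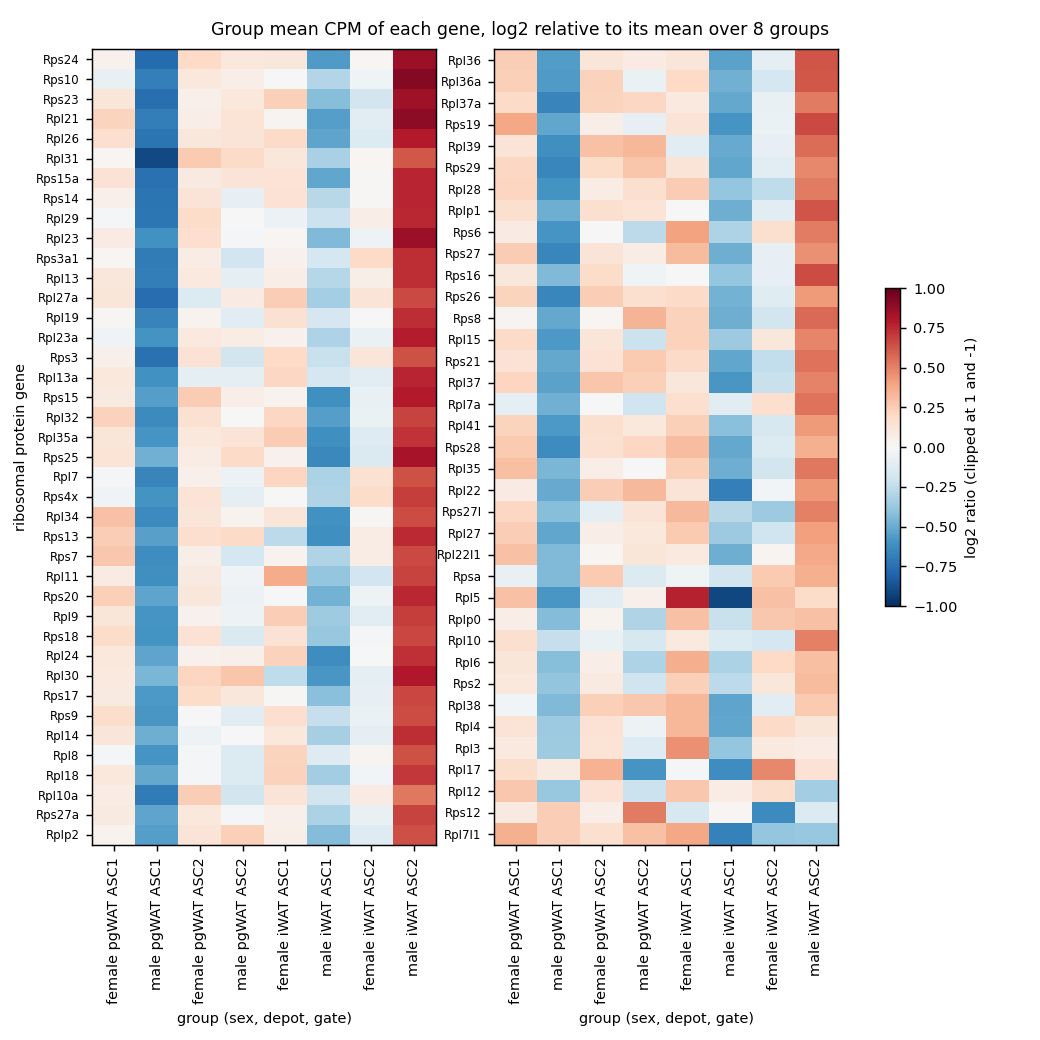
Mean CPM of 77 of the 80 tested ribosomal protein genes in each of the 8 groups, as log2 of its ratio to the mean over the groups (color, clipped at 1 and -1), with genes sorted by the difference between male iWAT ASC2 and male pgWAT ASC1 and split over 2 panels. The column of male pgWAT ASC1 is blue for most genes, with 61 of all 80 at their lowest there, and that of male iWAT ASC2 red, with 70 of all 80 at their highest.

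Across the 8 groups the order was shared by most members. Of the 80 tested, 70 had their highest mean in male iWAT ASC2, 61 their lowest in male pgWAT ASC1 and 18 in male iWAT ASC1. Rpl35a had the largest difference between the sexes in the gate effect in iWAT (1.27 ± 0.26, SE, adjusted p = 0.00112). Its levels were 56.5 to 86.2 CPM in female ASC1, 41.4 to 73.3 in female ASC2, 22.0 to 49.6 in male ASC1 and 60.7 to 135 in male ASC2. Male ASC1 stood below all female ASC1 samples and all male ASC2 samples, and female ASC2 overlapped with each of the other groups. Rps23 (1.24), Rps25 (1.20), Rpl26 (1.18) and Rpl11 (1.16) came next. For the members as a group, the median of this difference was 1.05 in library a, 0.78 in b and 0.35 in c, with 18, 6 and 0 called (5 at an unadjusted p under 0.05 in c). One mouse left out gave 17 to 46 called members: 23, 21, 17, 23 and 19 without mouse 4, 6, 8, 17 or 23, and 40 without mouse 22, the sample with the most mammary epithelial RNA.

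The P-stalk, where translation factors dock, is built from Rplp0 and dimers of Rplp1 and Rplp2. Per kilobase of transcript, Rplp1 (950.4 CPM per kb) and Rplp0 (863 CPM per kb) were the highest members, with Rps2 (647) and Rps14 (557) also among the 5 highest. Rplp1 rose in male ASC2, from 262 to 395 CPM (median 334) to 383 to 624 CPM (median 505) in pgWAT (0.57 ± 0.17, SE, adjusted p = 0.0241). In iWAT it went from 271 to 391 CPM (median 323) to 352 to 1003 CPM (median 802), with 0.92 ± 0.16 (SE, adjusted p = 2.2e-05). Rplp2 did likewise, with log2 fold changes of 0.76 and 0.89. Rplp0, their anchor, gave 0.07 ± 0.15 (SE, adjusted p = 0.9) and 0.32 ± 0.15 (SE, adjusted p = 0.155), and ran from 880.1 to 1134 CPM in male iWAT ASC1 and from 1159 to 1739 CPM in male iWAT ASC2. Between depots in male ASC2 all 3 were called higher in iWAT, Rplp0 by 0.75, Rplp1 by 0.65 and Rplp2 by 0.57. Rpsa, which is also known as a laminin receptor precursor, was the member called between the gates in female iWAT (0.58 ± 0.16, SE, adjusted p = 0.00679), from 398 to 685 CPM (median 476) in ASC1 to 518 to 685 CPM (median 623) in ASC2. In male iWAT its log2 fold change was 0.34 (adjusted p = 0.143).

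Paralog pairs were read side by side. Rpl7 rose between the gates in male iWAT (0.75 ± 0.15, SE, adjusted p = 0.00017), while Rpl7l1 gave 0.07 ± 0.23 (SE, adjusted p = 0.899). Rpl7l1 had median levels of 56.4 to 62.5 CPM in the 4 pgWAT groups and 26.5 to 45.3 CPM in the 4 iWAT groups, opposite in order to Rpl7 in males. Rpl22 rose by 0.78 in male pgWAT and 0.90 in male iWAT, and Rpl22l1, which it is known to repress, gave 0.53 (adjusted p = 0.277) and 0.66 (adjusted p = 0.0652). Rps27 rose by 0.67 and 0.75, and Rps27l, a target of p53, gave 0.52 (adjusted p = 0.273) and 0.59 (adjusted p = 0.101). For these last 2 pairs the paralog's value was close to that of its partner, with a larger error, and the difference between them was not tested. Rpl39l, a form known from the testis, was below the filter, at 0 in all 14 female pgWAT samples, at most 0.449 CPM in male pgWAT, and at 1.31 to 3.00 CPM in female and 0.583 to 6.34 CPM in male iWAT ASC2. Rpl10l, also a testis form, averaged 0.108 CPM, and Rpl3l, the muscle form of Rpl3, 0.251 CPM. Rps4x, on the X chromosome, changed by 0.79 ± 0.16 (SE, adjusted p = 0.000205) between the gates in male iWAT and by -0.43 ± 0.17 (SE, adjusted p = 0.14) between males and females in pgWAT ASC1. Rpl10, also on the X chromosome, gave 0.44 ± 0.18 (SE, adjusted p = 0.0973) between the gates in male iWAT, and 0.61 ± 0.19 (SE, adjusted p = 0.0452) between the sexes in iWAT ASC2.

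**Figure D5:**
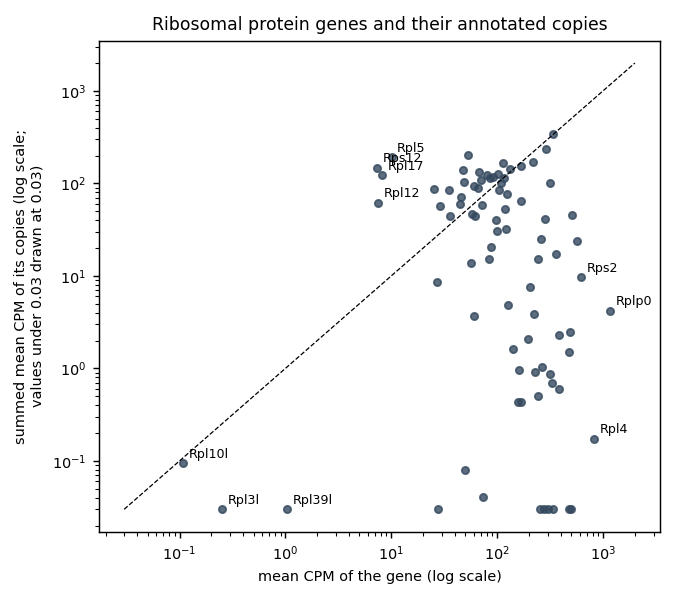
Mean CPM of each of the 83 ribosomal protein genes over 57 samples (x axis, log scale) against the summed mean CPM of its annotated copies (y axis, log scale, values under 0.03 drawn at 0.03), with a dashed line where both are equal. The 24 genes above the line, among them Rpl5 and Rps12, have more counts on their copies than on the gene itself.

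Ribosomal protein genes have many processed pseudogenes, and the counts of some members were affected by them. In all, 74 of 83 members had at least 1 annotated copy with 95% identity or more over at least 80% of the coding sequence, together 541 copies of which 515 are annotated as pseudogenes. For 24 members the copies held more counts than the gene. The 5 lowest tested members per kilobase were Rpl5 (4.92 CPM per kb), Rpl12 (6.07), Rpl17 (10.6), Rps12 (16.1) and Rps20 (27.9). Rpl5 averaged 10.1 CPM and its copies 191 CPM, Rpl12 7.54 and 61.7 CPM, Rpl17 8.21 and 122 CPM, Rps12 7.39 and 148 CPM, and Rps20 103 and 85.1 CPM. Rps20 was thus not among the genes with more counts on their copies. Its annotated transcript is 3706 bases long, of which 357 are coding, against a median of 731.5 bases for tested members. Levels of the 24 genes with more counts on their copies are uncertain for this reason. Beside Rpl5, Rpl12, Rpl17 and Rps12 they include genes named above, such as Rps23 (53.3 CPM on the gene and 203 CPM on its copies), Rpl21 (68.0 and 134 CPM), Rpl31 (45.8 and 70.8 CPM) and Rps29 (133 and 144 CPM). With copies added to their member, the group mean shares were 1.35% in male pgWAT ASC1, 1.94% in male pgWAT ASC2, 1.56% in male iWAT ASC1 and 3.01% in male iWAT ASC2, and 2.02% to 2.24% in the female groups. The order of the male groups remained. The called members then numbered 71 between the gates in male iWAT, 49 in male pgWAT and 46 between the sexes in pgWAT ASC1.

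After removing group means, members varied together over the 57 samples: the median correlation of a member with the mean of the others was 0.729 (from -0.138 for Rpl12), and 30 members were above 0.8, while 3006 other genes of at least log2 CPM 5 had a median of -0.0221. These values describe samples that share libraries and scaling. Of the 10 other genes most like the members, 9 were copies of ribosomal protein genes, led by Rps23-ps1 (0.895), Rps16-ps2 (0.890) and Gm7536 (0.876). The remaining one was Fau (0.799), which encodes the small subunit protein eS30 fused to a ubiquitin-like domain and follows no Rps naming.

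Pyrimidine runs were frequent in the members, and members with longer and shorter runs had close medians. A run of at least 8 C or T within 25 bases of the start was found in 33 of 63 members (52.4%) and in 22.2% of 26962 other genes, and the letters CTTTCC on the sense strand there in 17.5% and 2.88%. In the 300 bases around the start, CCGGAAG, a core letter string of ETS factor sites, occurred on either strand in 41.3% of members and 9.85% of other genes, and TATAAA on the sense strand in 9.52% and 9.77%. Among tested members, the 32 with a run of 8 or more had a median log2 fold change of 0.77 between the gates in male iWAT and the 28 with a shorter run 0.81, and between the sexes in pgWAT ASC1 the medians were -0.61 and -0.57. Of the genes whose sequences are printed, Rps25 (1.27), Rpl34 (1.06) and Rpl35a (1.14) changed strongly between the gates in male iWAT, whereas Rpl7a (0.46) and Rpl4 (0.43), with runs of 21 and 14 bases, changed less.

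Other genes of the translation apparatus were counted from lists, to be read against the 7.9% of all genes called higher between the gates in male iWAT, 4.03% in male pgWAT, and the 5.42% called lower between the sexes in pgWAT (2.84% in ASC1). Of 10 further mRNAs known to carry a TOP tract, 6 were higher in ASC2 than ASC1 in male iWAT and none lower (median 0.64), among them Fau (0.99), Tpt1 (0.78), Naca (0.76), Npm1 (0.75) and Hnrnpa1 (0.53). In male pgWAT 2 were higher (median 0.32), in female iWAT 1 and in female pgWAT none. Between the sexes in pgWAT ASC1, 3 were lower in males, among them Npm1 (-0.83) and Fau (-0.65). Of 33 initiation and elongation factors, 3 were higher and 1 lower between the gates in male iWAT (median 0.21), with Eef1b2 at 1.22, Eif1 at 0.65, Eef1a1 at 0.39 and Eif4h at -0.40. Between the sexes in pgWAT 9 of the 33 were lower in males, led by Eif2s3x (-0.83), an X-linked gene, Pabpc1 (-0.73) and Eef1b2 (-0.55). Ribosome biogenesis genes, which make and process rRNA, did not show this pattern in the male gate comparisons: of 38, none was called in male pgWAT (median 0.04), and in male iWAT 1 was lower and none higher (median -0.12). Of 78 mitochondrial ribosomal protein genes, which build the separate ribosome of that organelle, 2 were higher in male pgWAT ASC2 and 3 in male iWAT ASC2, with medians of -0.01 and 0.11.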

How the data were processed

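Counts per gene were measured in 143 libraries of FACS-sorted ASC from 16 mice. The authors deposited raw counts, whole numbers of reads per gene. The submitters' processing notes name bcl2fastq, STAR, Salmon and mm10, without versions, and the sources used here do not state whether counting used strand. The deposited table of averaged counts was not used. The 92 spike-in features (0.00461% of counts) were left out.

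Members and gene lists were chosen with earlier results of these data known. Libraries are technical replicates of one sample (letters a, b and c) and were summed per mouse, depot and gate. Of the samples, 33 had 3 libraries, 20 had 2 and 4 had 1. The median library held 848774 counts and 10 libraries held under 250000, which limits the precision of low members. Apart from library b of male iWAT ASC1 mouse 5 (244433 counts), all of these 10 were libraries of female iWAT ASC1. Leaving shallow libraries out thus acts mainly on this group. The unit of every test was the sample of a mouse, depot and gate. Fits over both gates, both depots or all groups held several samples of a mouse as separate replicates. Exceptions were the fits with mouse as a replicate block and those with gates summed per mouse.

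CPM used all gene counts as the total, once also without the 2 rRNA-like genes. Tests used edgeR 4.0.16 in R 4.3.3 on the summed counts (filterByExpr, TMM scaling, quasi-likelihood test, Benjamini-Hochberg adjustment over all genes tested, called at an adjusted p under 0.05). Sex was tested within a depot with gate in the fit, gate within a depot with sex, depot within a sex with gate, and 2 interactions over all samples. A fit with 8 groups, the fits by letter, those with copies added and those with a mouse left out were chosen after seeing the data. DESeq2 1.42.0, other scaling, no filter, shallow libraries left out and mouse as a replicate block were alternatives. On simulated counts with known changes, the male depot comparison recovered 90.6% of genes changed by log2 1, and the interaction of sex and depot 46.4%. Only genes above a minimum level were changed, all genes had the same dispersion, and samples were independent. The members had medians of 0.64 and 0.62 in these comparisons, so these rates do not give the recovery of changes of their size.

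The mouse number is the same animal in each gate and depot, so samples of one number are paired. Deviations from group means had a median correlation of 0.0909 (pgWAT) and 0.0380 (iWAT) for ASC1 and ASC2 from the same mouse, and -0.0122 (pgWAT) and -0.00753 (iWAT) for ASC1 and ASC2 from unlike mice.

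Named members were, per comparison, the 5 called members that changed most on the log2 scale in each direction, the paralog pairs, the P-stalk genes and Rpsa, members below the filter, and the 5 highest and lowest by CPM per kb. Genes whose promoter window is printed, Rpl7a among them, and Rps4x, Rpl10 and Rpl4 in further comparisons were named after their values were seen. Some members and list genes that this rule names are not reported here, though all counts include them. From the other lists the 3 called genes with the largest changes were named, with the further called genes of the TOP list and Eif4h added after seeing their values. Copies were found with BLAST 2.17.0+ against GENCODE M21 transcripts. A chi-square test over genes of each pair of libraries from the same sample found no pair within sampling noise.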

Additional observations from a re-analysis of the deposited data

Results flagged for a closer look

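Members were screened for single samples far from the rest of their group, by the gap to the nearest sample as a share of the group's range. Of 128 combinations of a member, or of the summed share, and a group, 9 passed (7.03%), where chance passes about 1 in 20. In pgWAT ASC1, Rps4x stood at 601 CPM in female mouse 23 (group median 447), Rpsa at 495 CPM in male mouse 1 (median 352) and Rpl7l1 at a low 27.3 CPM in male mouse 2 (median 62.5). In female pgWAT ASC2, Rpl3 stood at a low 416 CPM in mouse 23 (median 658), Rpl22l1 at 43.6 CPM in mouse 20 (median 24.0) and Rps4x at 674 CPM in mouse 18 (median 516). In male pgWAT ASC2, Rpl22 stood at 133 CPM in mouse 5 (median 85.2), Rpl7l1 at 96.1 CPM in mouse 4 (median 56.4) and Rpl39 at 111 CPM in mouse 6 (median 65.9).

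Effects differed between groups by a test of the difference itself in 2 places. The sex difference differed between the depots for 23 members, with differences of log2 fold changes of 0.88 for Rpl29 and 0.85 for Rps7. The gate difference in iWAT differed between the sexes for 35 members, with 1.27 for Rpl35a, 1.24 for Rps23, 1.20 for Rps25, 1.18 for Rpl26 and 1.16 for Rpl11. The first rested on the libraries with letter a, as given above. The second kept the sign of its median in each letter. Fewer members were called for it from each single letter, with mouse as a replicate block and without libraries under 250000 counts. Its value in letter b draws on female iWAT ASC1 libraries with shares of 2.21% to 2.74% at a median depth of 170909 counts.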

How the results depend on the processing

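Counts are of called members. With mouse as a replicate block, which the pairing of samples by animal allows, counts were 18 for the gates in iWAT, 12 for sex by depot, 12 for sex by gate in iWAT, 3 for sex by gate in pgWAT, and 1 and 2 for the gates in female pgWAT and iWAT. The block moved no other count by over 1.5 times, with 50 and 56 for the gates in male pgWAT and iWAT. Library totals moved the median of all genes by up to 0.49 (sex by gate in iWAT) and gave 2 (sex in iWAT), 26 (gates in iWAT), 45 (male depots), 5 (sex by depot), 62 (sex in pgWAT ASC1), 51 (sex in iWAT ASC1), 4 (gates in female iWAT), 9 (depots in male ASC1), 3 and 74 (sex by gate in pgWAT and iWAT). DESeq2 gave 1 for sex in iWAT and 1 for female depots, no filter 23 for sex in pgWAT and 1 for each of those, and DESeq2's size factors 6 for sex in iWAT ASC1. Gates summed per mouse gave 17 for sex in pgWAT. Copies gave 2 for sex in iWAT and 2 for the gates in female iWAT. Without shallow libraries counts were 4 (sex in iWAT), 47 (sex by depot), 5 (gates in female iWAT), 1 (depots in female ASC1) and 8 (sex by gate in iWAT).

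From library a alone counts were 7 and 34 (sex in pgWAT and iWAT), 1 and 62 (gates in pgWAT and iWAT), 2 (female depots), 47 (sex by depot), 2 (gate by depot), 0 (sex in pgWAT ASC1 and gates in male pgWAT), 4 (gates in female iWAT), 1 and 15 (depots in female and male ASC1) and 18 (sex by gate in iWAT). From b they were 3 (sex in pgWAT), 11 and 2 (gates), 3 and 1 (male and female depots), 0 (sex by depot, sex in pgWAT ASC1 and in iWAT ASC2, depots in male ASC1), 40 (sex in iWAT ASC1), 3 (gates in male pgWAT), 3 (depots in female ASC1), 3 (depots in male ASC2) and 6 (sex by gate in iWAT). From c they were 25 (sex in pgWAT), 4 and 8 (gates), 5 and 6 (male and female depots), 0 (sex by depot, sex in iWAT ASC2, sex by gate in iWAT), 1 (sex in pgWAT ASC2), 7 (sex in iWAT ASC1), 15 and 17 (gates in male pgWAT and iWAT), 8 and 5 (depots in female and male ASC1) and 1 (depots in male ASC2). From b and c summed they were 15 and 14 (gates), 35 (male depots), 0 (sex by depot), 56, 36 and 1 (sex in pgWAT ASC1, iWAT ASC1 and iWAT ASC2), 10 and 9 (depots in male ASC1 and ASC2), and 1 and 12 (sex by gate in pgWAT and iWAT). One letter holds fewer libraries and counts than the sum. For sex by depot, library a alone gave 47 called members and all libraries 23. The cause of the differences between letters was not tested. The share of all genes called in the fits by letter is not given, only that of other coding genes in some comparisons. Nor is the share of all genes given for fits with the block, without shallow libraries or with a mouse left out.

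With one mouse left out counts were 26 to 47 (sex in pgWAT), 22 to 51 (gates in iWAT), 57 to 71 (male depots), 14 to 37 (sex by depot), 24 to 46 (sex in pgWAT ASC1), 27 to 58 (sex in iWAT ASC2), 14 to 38 and 62 to 71 (gates in male pgWAT and iWAT), 50 to 62 (depots in male ASC2) and 17 to 46 (sex by gate in iWAT). Without the rRNA-like genes the mean shares were 2.45%, 1.61%, 2.64% and 2.31% in pgWAT (female and male ASC1, female and male ASC2) and 2.64%, 1.98%, 2.68% and 3.69% in iWAT. Of 51 named member results, 373 alternative values kept direction and call, 125 kept only direction and 3 changed sign: Rpl29 for sex by depot (-0.078) from library b, and Rps3 (-0.0088) and Rps3a1 (-0.14) for depots in male ASC1 from library c.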

Other observations

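Of 20 growth control genes tested, which act on ribosomal protein mRNAs, 1 was higher and 1 lower in ASC2 in pgWAT, where 7.73% of all genes were called higher, and 1 was lower in iWAT. Between the sexes 1 was called in pgWAT and 1 in iWAT, where 4.38% of all genes were called in either direction. Between the male depots 1 was higher and 1 lower, where 8.16% of all genes were called higher and 5.8% lower. With 1 of 20 called in a direction, the list did not stand out from these shares. The genes named next are therefore single results. Deptor, which encodes an inhibitor of mTOR, was lower in ASC2 in both depots (log2 fold change -1.55 in pgWAT and -2.43 in iWAT), higher in males in pgWAT (0.63) and lower in male iWAT than pgWAT (-0.58). Pdcd4, which encodes an inhibitor of the helicase eIF4A, was higher in ASC2 in pgWAT (0.81). Eif4ebp1, which encodes a repressor of cap-dependent initiation that mTORC1 inactivates, was higher in males in iWAT (1.02) and in male iWAT than male pgWAT (0.80).

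Between the depots in males, 7 of 33 initiation and elongation factors were higher in iWAT, where 8.16% of all genes were (Eef1b2 0.88, Eif3k 0.71 and Eif1 0.62 led) and none lower, and 6 of 10 further TOP mRNAs were higher (Tpt1 0.73 and Fau 0.69 among them). Of 78 mitochondrial ribosomal protein genes 10 were higher in iWAT, with Mrps24 at 1.12, Mrps18a at 0.91 and Mrpl53 at 0.87, against a median of 0.27 for that list and 0.64 for the cytosolic genes. Ribosome biogenesis genes had 1 of 37 tested higher and 2 lower. Short coding genes other than the cytosolic members had a median of 0.34 there.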
